A study of Mus musculus with 12 samples.

Results

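The variable (V) segments of the immunoglobulin light chains were followed in 12 RNA sequencing libraries of mouse splenic B cells. The set holds 97 genes of the 43629 in the count table. These are the genes that the annotation types as immunoglobulin V genes, whose symbol begins with Igkv (kappa, 94 genes) or Iglv (lambda, 3 genes), and that were selected on their raw counts, with 10 or more in at least 4 of the 12 libraries. Of the 100 such annotated genes in the table, 3 fell short of this minimum. It read only the size of the counts and no group: 93 members reached it in all 12 libraries and 0 reached it through 1 group only. Igkv19-93 stood just inside, with at least 10 counts in just 4 libraries and a range of 2 to 14 counts, and Igkv13-85 just outside, with 9 counts in the library at rank 4 and a range of 2 to 15 counts.

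The first group was 4 libraries of Zfp36l1-deficient marginal zone (MZ) B cells (replicates 1, 2, 7 and 8; Zfp36l1fl/flERT2cre/+), the second was 4 libraries of control MZ B cells (replicates 3, 4, 5 and 6; ERT2cre/ERT2cre), and the last was 4 libraries of follicular (FO) B cells (replicates 3, 4, 7 and 8; Zfp36l1fl/fl cre-). All carry the strain label Zfp36l1tm1.1Tnr. ERT2cre is a Cre recombinase fused to a modified oestrogen receptor, so that it acts in the presence of tamoxifen. The labels name neither its promoter nor any tamoxifen treatment nor the ages of the mice. Deficient and control MZ cells differ in the floxed allele and also in the number of ERT2cre copies, and FO cells carried the floxed alleles without Cre. Per the series' design text, the MZ samples went into a SMARTer kit at 5 ng of RNA and were read as 100 bp pairs, whereas a stranded TruSeq kit and single 100 bp reads served for the FO samples. Cell type, kit, read layout and genotype therefore cannot be told apart between MZ and FO libraries. Nothing in the labels says whether each replicate was its own animal. The p-values therefore gauge how far these samples scatter, and that scatter may be technical.

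Each light chain is encoded by 1 V segment, joined to a joining (J) segment in the developing B cell and spliced to a constant (C) gene. Most mouse B cells use the kappa locus (Igk) and a minority the lambda locus (Igl), which holds few V segments. A mature B cell normally keeps its rearranged V segment, so the counts over V segments in a sorted population reflect which segments its cells carry and how much RNA each cell makes. In bulk RNA, more cells with a segment and more RNA per cell cannot be told apart. MZ B cells sit at the edge of the splenic follicle and are known for a receptor repertoire that differs from that of the recirculating FO B cells.

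The counts per library ranged from 28938453 to 40664963, of which 74237 to 126439 lay on light chain V members. Zfp36l1, the targeted gene and an RNA-binding protein that promotes mRNA decay, had 22.0 to 37.5 CPM (the usual count scaled to library size, here adjusted by the trimmed mean of M values, TMM) in deficient MZ libraries and 110 to 126 CPM in control MZ libraries. In FO libraries it had 352 to 396 CPM. All 8 listed MZ marker genes, among them Cr2 and Cd1d1, were higher in deficient MZ than in FO cells and in control MZ than in FO cells (edgeR quasi-likelihood, adjusted p under 0.05). Over all genes, 42.9% and 42.6% were called higher in these comparisons.

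The mouse lambda V segments are shown first because their summed share separated all MZ from all FO libraries, and because Iglv1 and Iglv2 are near-copies. In the GENCODE M21 transcripts of build GRCm38, their V exons of 305 bases differed at 9 bases, an identity of 97.05%. The last 300 bases are printed 5′ to 3′ with the 8 bases that differ between them in capitals. Both lie on the minus strand of chromosome 16, at chr16:19085017-19085316 for Iglv1 and chr16:19260401-19260700 for Iglv2.
Iglv1: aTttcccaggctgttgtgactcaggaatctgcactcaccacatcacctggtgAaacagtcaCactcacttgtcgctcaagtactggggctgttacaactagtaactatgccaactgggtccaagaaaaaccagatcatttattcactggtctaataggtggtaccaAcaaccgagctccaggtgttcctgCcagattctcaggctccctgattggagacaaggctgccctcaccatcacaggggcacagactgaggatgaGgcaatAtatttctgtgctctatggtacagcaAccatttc
Iglv2: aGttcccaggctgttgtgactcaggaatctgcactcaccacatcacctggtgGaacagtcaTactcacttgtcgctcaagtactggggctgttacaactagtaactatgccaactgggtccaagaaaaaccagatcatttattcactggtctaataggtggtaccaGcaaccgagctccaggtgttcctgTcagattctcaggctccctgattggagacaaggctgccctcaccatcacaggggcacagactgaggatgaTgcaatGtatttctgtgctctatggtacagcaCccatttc
Iglv3 was a distant relative, with 53.6% identity to Iglv1 and 52.4% to Iglv2. Despite their likeness, 98.3% of the 100-base windows of the Iglv1 transcript and 98.1% of those of Iglv2 were found in no other gene's transcript, so most reads of 100 bp can in principle be told apart.

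The V segment also ends inside the antigen-binding loop that forms at the junction with J, and the segments named most below differ there. All 97 members held a cysteine codon in frame near the end of the V exon, which opens this loop, and in 94 of them 18 to 25 bases followed it up to the exon's end. The ends of the lambda segments, of the kappa segments with high shares in every group (Igkv1-135, Igkv1-117), of a segment with a higher share in MZ libraries (Igkv8-27) and of segments with a lower share there (Igkv10-96, Igkv6-32, Igkv5-39, Igkv5-43, Igkv3-12) are printed 5′ to 3′, with that codon in capitals.
Iglv1: ttcTGTgctctatggtacagcaaccatttc
Iglv2: ttcTGTgctctatggtacagcacccatttc
Iglv3: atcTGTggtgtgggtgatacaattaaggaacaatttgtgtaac
Igkv1-135: ttatTGCtggcaaggtacacattttcctca
Igkv1-117: ttacTGCtttcaaggttcacatgttcctcc
Igkv8-27: gtttattacTGTcatcaatacctctcctcg
Igkv10-96: ctttTGCcaacagggtaatacgcttcctcc
Igkv6-32: tttcTGTcagcaggattatagctctcctcc
Igkv5-39: ttacTGTcaaaatggtcacagctttcctcc
Igkv5-43: tttcTGTcaacagagtaacagctggcctca
Igkv3-12: ttacTGTcagcacagtagggagcttcctcc
The lambda ends lie on the minus strand at chr16:19085017-19085046, chr16:19260401-19260430 and chr16:19241207-19241249. Of the kappa ends, chr6:67610479-67610508 (Igkv1-135), chr6:68121798-68121827 (Igkv1-117) and chr6:70518820-70518849 (Igkv3-12) lie on the plus strand. Those of Igkv8-27 (chr6:70171809-70171838), Igkv10-96 (chr6:68631963-68631992), Igkv6-32 (chr6:70074024-70074053), Igkv5-39 (chr6:69900424-69900453) and Igkv5-43 (chr6:69823355-69823384) lie on the minus strand. V exons were 294 to 324 bases long, so shares of counts were not divided by length. Igkv5-43 shared 99.0% of its V exon with Igkv5-45, and 66.4% of its windows were found in no other transcript. This share was 37.1% for Igkv8-16 and 44.2% for Igkv6-29, so counts of these genes may hold or lack reads of their copies.

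Usage, the share of all light chain V counts that falls on a segment, was uneven in every group. Iglv1 led with a mean share of 9.16% ± 1.45 in deficient MZ libraries and 9.13% ± 2.49 in control MZ libraries, and was at rank 6 in FO libraries with 3.17% ± 0.367 (SD, n = 4 each here and below). Igkv1-135 followed with 5.76% ± 0.343 in deficient MZ, 5.92% ± 0.407 in control MZ and 4.16% ± 0.190 in FO libraries. Igkv1-117 took 5.58% ± 0.238, 5.47% ± 0.109 and 5.40% ± 0.369 of the counts in deficient MZ, control MZ and FO libraries, so its mean shares lay within the spread of the FO libraries. In FO libraries the leading segment was Igkv10-96, with 6.07% ± 0.840, against 2.80% ± 0.324 in deficient MZ and 3.28% ± 0.280 in control MZ libraries, where it was at rank 8.

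The counts were less evenly spread in MZ than in FO libraries. The 10 most used segments held 45.9% of the counts in deficient MZ, 45.2% in control MZ and 37.9% in FO libraries. It took 12 segments to reach 50% of the counts in deficient MZ and 12 in control MZ libraries, against 16 in FO libraries. The number of equally used segments that would give the same Shannon entropy, called here the effective number, was 48.5, 47.3, 46.4 and 48.0 in deficient MZ replicates 1, 2, 7 and 8, and 50.6, 51.0, 47.6 and 45.3 in control MZ replicates 3, 4, 5 and 6. It was 54.5, 55.8, 55.9 and 55.0 in FO replicates 3, 4, 7 and 8, above every MZ library. Over kappa segments alone it was 50.01 ± 0.725 in deficient MZ, 51.0 ± 0.198 in control MZ and 52.9 ± 0.636 in FO libraries. The lowest mean shares were 0.00757% in deficient MZ, 0.00419% in control MZ and 0.00925% in FO libraries. No p-value is given for values summed over members, since the members were chosen with earlier results of these data known, and each is described by its values in the libraries.

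**Figure D1:**
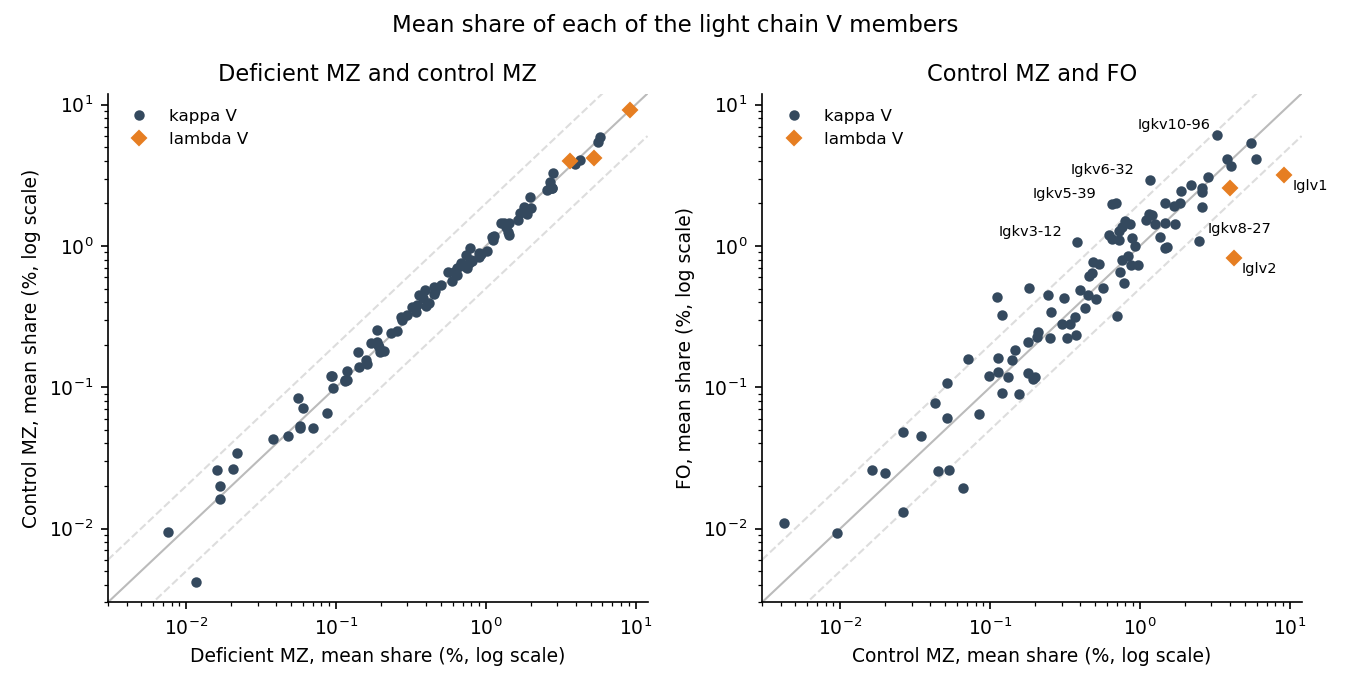
Mean share of light chain V counts for each of the 97 members, on log axes in percent, in deficient MZ against control MZ libraries (left) and in control MZ against FO libraries (right). Each point is a segment, the solid line marks equal shares and the dashed lines 2-fold differences. Most points lie within the dashed lines on the left and more lie beyond them on the right, where Iglv2 lies at 4.21% in control MZ and 0.817% in FO libraries.

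The first comparison asks what loss of Zfp36l1 goes along with in MZ cells, and no light chain V segment was called changed in it. Of the 97 members, 95 passed the filter on low counts, and of these 0 were called higher and 0 lower in deficient than in control MZ cells (edgeR quasi-likelihood, smallest adjusted p = 0.134). Over all 13987 genes tested, 2.29% were called higher and 1.40% lower. Without adjustment 8 members had a p under 0.05, and DESeq2 called 0. In the authors' deposited table, no member out of 97 had an adjusted p under 0.05, beside 7.64% of all genes with an adjusted p there, and 2 members had no adjusted p. The median log2 difference of the members was 0.10, against -0.0037 over all genes tested. The 95% intervals of the log2 differences ran from -1.47 at the lowest bound to 1.13 at the highest, so the design leaves room for sizeable changes in segments with few counts.

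Among lambda segments, Iglv2 had the largest difference. Its share was 4.57, 5.25, 5.63 and 5.54% in deficient MZ replicates 1, 2, 7 and 8, against 3.62, 2.85, 5.11 and 5.28% in control MZ replicates 3, 4, 5 and 6. Control replicates 3 and 4 were low, and the other control libraries overlapped the deficient ones. Its level was 129 ± 2.43 CPM in deficient MZ and 96.5 ± 35.1 CPM in control MZ libraries, a log2 difference of 0.41 (SE 0.18, 95% interval 0.02 to 0.80; edgeR quasi-likelihood, adjusted p = 0.244). Without control MZ replicate 4 the log2 difference was 0.23. Iglv1 differed by 0.10 on the log2 CPM scale (SE 0.18; edgeR quasi-likelihood, adjusted p = 0.807) and Iglv3 by 0.01 (SE 0.08; edgeR quasi-likelihood, adjusted p = 0.981).

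Summed over the lambda segments, the lambda share was 15.7, 18.7, 20.6 and 17.4% in deficient MZ replicates 1, 2, 7 and 8, against 14.5, 14.0, 19.0 and 21.7% in control MZ replicates 3, 4, 5 and 6. The groups overlapped, with means of 18.1% ± 2.08 and 17.3% ± 3.72. Within the lambda counts, Iglv2 took 29.2, 28.1, 27.4 and 31.9% in the deficient MZ libraries, against 25.0, 20.3, 26.8 and 24.3% in the control MZ libraries. These shares did not overlap, but deficient replicate 7 and control replicate 5 lay close. The count ratio of Iglv1 to Iglv2 was 1.74 ± 0.191 in deficient MZ, 2.19 ± 0.281 in control MZ and 4.08 ± 0.927 in FO libraries. It overlapped between the MZ groups, with 1.94 in deficient replicate 7 and 1.93 in control replicate 3. Neither reading was among the planned values, and the lack of overlap in the first is not read as a result.

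Among kappa families, which group segments of similar sequence under the first number of the symbol, only Igkv4 out of 19 had shares that did not overlap between deficient and control MZ libraries. Its 26 members together held 9.56, 10.1, 10.01 and 9.92% of the light chain V counts in deficient MZ replicates 1, 2, 7 and 8, against 10.9, 10.9, 10.7 and 10.8% in control MZ replicates 3, 4, 5 and 6. FO libraries lay higher still, at 11.5 to 12.1%. As a share of kappa counts alone the family held 11.3 to 12.6% in deficient MZ and 12.7 to 13.8% in control MZ libraries, with FO libraries at 12.3 to 13.0% overlapping both. Of the 26 members, 20 had a lower and 6 a higher mean share in deficient than in control MZ libraries. The light chain V total, by which these shares are divided, was 2469 ± 246 TMM-scaled CPM in deficient MZ and 2249 ± 242 in control MZ libraries. Its part in the lower share of the family was not tested. Among all single segments, shares did not overlap for 2 higher members (Igkv8-26 and Igkv8-18) and for 6 lower ones (Igkv4-61, Igkv4-78, Igkv4-91, Igkv4-69, Igkv4-63 and Igkv4-50), chosen here after their values were seen. Across all genes tested, the CPM of the groups did not overlap for 6.31% in the higher and 5.58% in the lower direction. That is another measure than shares, so neither the 1 of 19 families nor the 2 and 6 of 97 members are read as a result about the segments. By CPM, tested members without overlap were Igkv2-137, Igkv1-133, Igkv9-129, Igkv8-24 and Igkv8-18, all higher in deficient MZ libraries. By that measure all 6 members with lower shares overlapped.

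The most used of the segments whose shares did not overlap, Igkv4-91, had 0.788, 0.834, 0.788 and 0.745% of the light chain V counts in deficient MZ replicates 1, 2, 7 and 8, against 0.956, 1.02, 1.03 and 0.870% in control MZ replicates 3, 4, 5 and 6. Its CPM differed by -0.18 on the log2 scale (SE 0.11; edgeR quasi-likelihood, adjusted p = 0.415). Igkv8-26, a segment just inside the count minimum, had 12, 6, 16 and 8 counts in the deficient MZ libraries, 3, 4, 5 and 3 in the control MZ libraries and 11 to 16 in the FO libraries. It did not pass the filter on low counts, and was the 1 member called when all 12 libraries were fitted together (edgeR quasi-likelihood, adjusted p = 0.0341).

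Over all segments, usage in deficient and control MZ libraries differed about as much as between libraries of the same group. The share of counts that would have to move between segments to turn one library into another had a median of 6.80% over the 16 pairs of a deficient and a control MZ library. It was 5.52% among the deficient MZ libraries and 7.30% among the control MZ libraries, over 6 pairs each. Between control MZ and FO libraries the median was 19.1%, with 16.9% the lowest of 16 pairs, and between deficient MZ and FO libraries it was 21.0%, with 18.8% the lowest. Over kappa segments alone these medians were 15.6% and 17.4%.

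The comparison of MZ with FO cells describes how segment counts differ between these sorted populations, with the library kits differing too. Most members were called, most of them lower in MZ cells, while the lambda segments Iglv1 and Iglv2 were higher. In control MZ against FO cells, 5 of the 97 members were called higher and 75 lower (edgeR quasi-likelihood, adjusted p under 0.05), beside 42.6% of all 13843 genes tested called higher and 38.8% lower. In deficient MZ against FO cells 6 were called higher and 73 lower, beside 42.9% and 38.4% of 13895 genes. Both comparisons use the same FO libraries. Members called higher in control MZ cells were Iglv1, Iglv2, Igkv8-27, Igkv8-16 and Igkv6-29, and in deficient MZ cells Igkv4-81 was called as well. Igkv6-29 and Igkv4-81 are named here after their values were seen.

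The split between directions depends on what the counts are scaled to. The members together took 2892, 2554, 2467 and 2565 CPM of the unscaled library total in deficient MZ replicates 1, 2, 7 and 8, and 2302, 2264, 2726 and 2483 in control MZ replicates 3, 4, 5 and 6. In FO replicates 3, 4, 7 and 8 they took 3347, 3395, 2918 and 3109, more than in any MZ library. With libraries scaled to the light chain V counts, 23 members were called higher in control MZ cells and 36 lower, beside 65.4% and 17.9% of all genes tested. In deficient MZ against FO cells they were 23 and 39, beside 60.0% and 20.7%. This scaling moved the median log2 difference of all genes to 0.76 in control MZ against FO cells and 0.62 in deficient MZ against FO cells, against 0.05 and 0.06 with TMM. Shares of light chain V counts did not overlap for 23 higher and 35 lower members between control MZ and FO libraries, beside 39.7% and 37.2% of all genes by CPM. Between deficient MZ and FO libraries they did not overlap for 23 higher and 37 lower members, beside 38.9% and 37.1%.

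The lambda segments went together. The lambda share was 15.7 to 20.6% in deficient MZ and 14.0 to 21.7% in control MZ libraries, against 6.23, 7.15, 6.23 and 6.57% in FO replicates 3, 4, 7 and 8. Iglv2 took 2.85 to 5.28% in control MZ libraries, against 0.644, 1.20, 0.669 and 0.753% in the FO replicates, where replicate 4 was the high library. Its CPM differed by 1.67 on the log2 scale between control MZ and FO cells (SE 0.27; edgeR quasi-likelihood, adjusted p = 0.000112) and by 2.11 between deficient MZ and FO cells (SE 0.19; edgeR quasi-likelihood, adjusted p = 3.95e-07).

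Iglv1 had 6.98, 7.21, 10.2 and 12.1% in control MZ replicates 3, 4, 5 and 6, against 3.37, 3.57, 2.77 and 2.98% in the FO replicates. Its CPM differed by 0.83 on the log2 scale between control MZ and FO cells (SE 0.21; edgeR quasi-likelihood, adjusted p = 0.00287) and by 0.96 between deficient MZ and FO cells (SE 0.12; edgeR quasi-likelihood, adjusted p = 9.62e-06). Iglv3 had a higher share, 3.97% ± 0.246 in control MZ against 2.55% ± 0.310 in FO libraries, while its CPM was close, with 89.2 ± 9.36 CPM in control MZ and 93.8 ± 6.08 CPM in FO libraries (log2 -0.06, SE 0.07; edgeR quasi-likelihood, adjusted p = 0.438). With libraries scaled to the light chain V counts it was called higher in control MZ cells, by 0.64 on the log2 scale (edgeR quasi-likelihood, adjusted p = 2.75e-05).

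**Figure D2:**
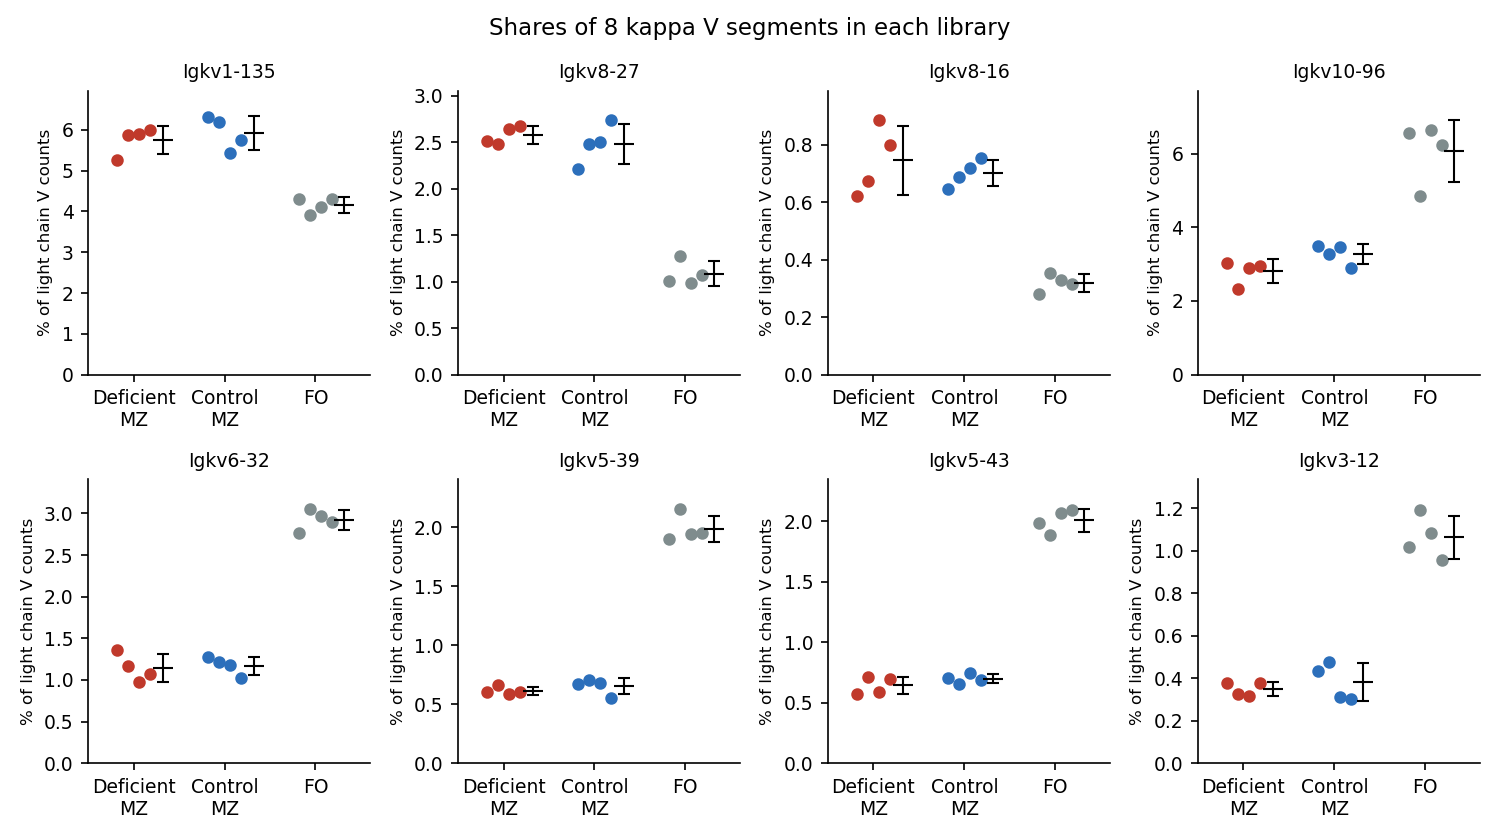
Share of light chain V counts in percent for 8 kappa segments in each library. Points are libraries in replicate order and the bar beside them is the mean with the SD. Igkv1-135, Igkv8-27 and Igkv8-16 lie higher in all MZ libraries, and Igkv10-96, Igkv6-32, Igkv5-39, Igkv5-43 and Igkv3-12 lie higher in all FO libraries.

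Of the kappa segments with a lower share in MZ cells, Igkv5-39 and Igkv5-43 had the largest log2 differences among the segments named. Igkv5-39 had 0.599, 0.663, 0.584 and 0.608% in deficient MZ replicates 1, 2, 7 and 8 and 0.673, 0.705, 0.682 and 0.552% in control MZ replicates 3, 4, 5 and 6, against 1.90, 2.15, 1.94 and 1.95% in FO replicates 3, 4, 7 and 8. Its CPM differed by -2.31 on the log2 scale between control MZ and FO cells (SE 0.11; edgeR quasi-likelihood, adjusted p = 1.26e-09). Igkv5-43 had 0.642% ± 0.0725 in deficient MZ and 0.697% ± 0.0366 in control MZ, against 2.01% ± 0.0918 in FO libraries, with a log2 CPM difference of -2.22 between control MZ and FO cells (SE 0.09; edgeR quasi-likelihood, adjusted p = 4.09e-10). The groups of MZ and FO libraries were far apart for both, and the 5 members of family Igkv5 together held 2.51% ± 0.0950 in deficient MZ and 2.66% ± 0.186 in control MZ, against 5.91% ± 0.0967 in FO libraries.

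Igkv10-96, the leading FO segment, had 3.03, 2.32, 2.91 and 2.96% in deficient MZ replicates 1, 2, 7 and 8 and 3.49, 3.26, 3.47 and 2.88% in control MZ replicates 3, 4, 5 and 6, against 6.56, 4.84, 6.65 and 6.24% in FO replicates 3, 4, 7 and 8. FO replicate 4 was the low FO library and still lay above every MZ library. The log2 CPM difference was -1.59 between control MZ and FO cells (SE 0.10; edgeR quasi-likelihood, adjusted p = 2.06e-08) and -1.66 without FO replicate 4 (edgeR quasi-likelihood, adjusted p = 1.23e-08). Igkv6-32 had 1.14% ± 0.166 in deficient MZ and 1.17% ± 0.109 in control MZ, against 2.92% ± 0.124 in FO libraries. Igkv3-12, Igkv3-7 and Igkv3-2 were also lower in control MZ cells, with log2 CPM differences of -2.21 (SE 0.13), -2.19 (SE 0.15) and -1.63 (SE 0.09) (edgeR quasi-likelihood, adjusted p = 1.05e-08, 3.19e-08 and 7.64e-09). Family Igkv3, with 9 members, held 4.16% ± 0.294 of the light chain V counts in deficient MZ and 4.08% ± 0.777 in control MZ, against 6.03% ± 0.343 in FO libraries.

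Fewer kappa segments went the other way by CPM or by share of all light chain V counts. As shares of kappa counts alone, 30 of the 94 lay higher and 25 lower in control MZ than in FO libraries without overlap. Between deficient MZ and FO libraries these numbers were 27 and 28. By CPM, 39.7% and 37.2% of all genes did not overlap in the first of these comparisons, and 38.9% and 37.1% in the second. Igkv8-27 had 2.51, 2.48, 2.65 and 2.67% in deficient MZ replicates 1, 2, 7 and 8 and 2.21, 2.48, 2.50 and 2.74% in control MZ replicates 3, 4, 5 and 6, against 1.01, 1.28, 0.984 and 1.07% in FO replicates 3, 4, 7 and 8. Its CPM differed by 0.69 on the log2 scale between deficient MZ and FO cells (SE 0.12; edgeR quasi-likelihood, adjusted p = 0.000119) and by 0.48 between control MZ and FO cells (SE 0.13; edgeR quasi-likelihood, adjusted p = 0.00486). Igkv8-16, of which most windows are shared with the predicted gene Gm43218, differed by 0.66 between deficient MZ and FO cells (SE 0.11; edgeR quasi-likelihood, adjusted p = 0.000115). Family Igkv8 held 9.88% ± 0.303 of the light chain V counts in deficient MZ and 9.70% ± 0.426 in control MZ, against 7.36% ± 0.835 in FO libraries.

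Other much used segments had closer mean shares. Igkv6-15 had 3.91% ± 0.451 in deficient MZ, 3.78% ± 0.426 in control MZ and 4.09% ± 0.222 in FO libraries, and Igkv9-120 had 2.67% ± 0.131 in deficient MZ, 2.84% ± 0.0698 in control MZ and 3.10% ± 0.198 in FO libraries. Both were called lower in CPM in control MZ than in FO cells, with log2 differences of -0.83 (SE 0.06) and -0.84 (SE 0.09) (edgeR quasi-likelihood, adjusted p = 9.63e-08 and 3.6e-06). Neither was called there with libraries scaled to the light chain V counts (edgeR quasi-likelihood, adjusted p = 0.298 and 0.19). In deficient MZ against FO cells Igkv9-120 was called lower with that scaling (log2 -0.22; edgeR quasi-likelihood, adjusted p = 0.0367), and its shares of 2.52 to 2.80% in deficient MZ and 2.82 to 3.28% in FO libraries did not overlap. Igkv1-110 had 4.78, 4.72, 3.16 and 4.41% in deficient MZ replicates 1, 2, 7 and 8 and 4.04, 3.89, 4.14 and 4.05% in control MZ replicates 3, 4, 5 and 6, against 4.13, 4.03, 2.66 and 4.03% in FO replicates 3, 4, 7 and 8. Igkv1-110 was called lower in CPM in control MZ cells, by a log2 difference of -0.60 against FO cells (SE 0.16; edgeR quasi-likelihood, adjusted p = 0.00388), and not with libraries scaled to the light chain V counts (edgeR quasi-likelihood, adjusted p = 0.381). Its log2 CPM difference between deficient MZ and FO cells was -0.35 (SE 0.19; edgeR quasi-likelihood, adjusted p = 0.114) and became -0.53 without FO replicate 7 (edgeR quasi-likelihood, adjusted p = 0.00876). Igkv1-117, which shares 96.8% of its V exon with Igkv1-110, was called lower by CPM in control MZ cells (-0.69 on the log2 scale against FO cells, SE 0.10; edgeR quasi-likelihood, adjusted p = 5.06e-05), although its share was close in all groups. Igkv1-135 had the higher share in MZ libraries and yet the lower CPM, with a log2 CPM difference of -0.20 between control MZ and FO cells (SE 0.06; edgeR quasi-likelihood, adjusted p = 0.00822).

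**Figure D3:**
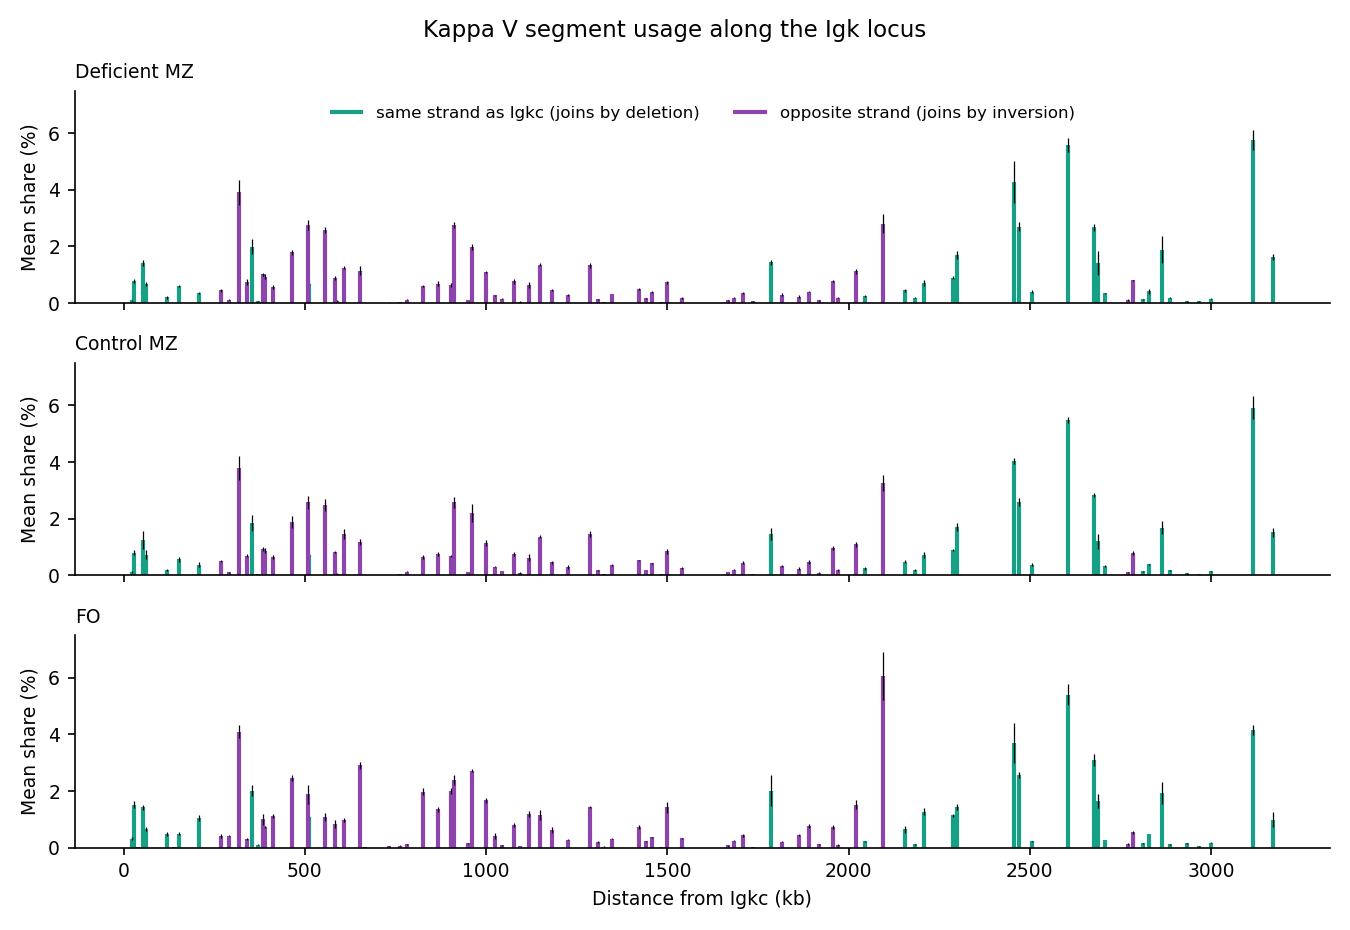
Mean share of light chain V counts in percent for each of the 94 kappa segments by its distance from Igkc in kb, in deficient MZ (top), control MZ (middle) and FO libraries (bottom). Colour gives the strand relative to Igkc and thin bars the SD over 4 libraries. Igkv10-96, 2094.0 kb away, is the tallest bar in FO libraries at 6.07%, and Igkv1-110, Igkv1-117 and Igkv1-135 lie farther out.

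Kappa counts were also summed by strand and by distance along the Igk locus. The kappa segments lie 22.3 to 3170.2 kb from Igkc. Of the 94, 36 lie on its strand and join J by deletion, and 58 lie on the other strand and join by inversion, which keeps the DNA between them. Counts of inversional segments made up 50.4, 50.02, 52.2 and 51.0% of kappa counts in deficient MZ replicates 1, 2, 7 and 8 and 52.4, 51.5, 52.8 and 52.8% in control MZ replicates 3, 4, 5 and 6, against 54.6, 56.2, 56.5 and 55.9% in FO replicates 3, 4, 7 and 8. Every FO library lay above every MZ library, and deficient and control MZ libraries overlapped. Over the 72 members with at least 90% of their windows found in no other transcript, the difference between control MZ and FO libraries was -1.37 percentage points, against -3.45 over all kappa members. That cut also removes much used segments. Among them are the inversional Igkv10-96 (87.7% of windows), the leading FO segment, and Igkv1-117 (83.9%) and Igkv1-110 (83.8%) on the strand of Igkc. Whether shared windows or the loss of these segments made the difference smaller was not tested.

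The 47 kappa segments farther from Igkc, beginning at 1309.0 kb, held 52.6, 54.6, 51.8 and 52.8% of kappa counts in deficient MZ and 52.6, 52.7, 54.0 and 53.7% in control MZ libraries, against 52.5, 48.3, 49.9 and 51.5% in FO libraries. Control MZ and FO libraries did not overlap, but FO replicate 3, at 52.46%, came close to control MZ replicate 3, at 52.61%, and it lay above deficient MZ replicate 7. The 23 of these segments on the strand of Igkc held 40.7% ± 1.33 of kappa counts in deficient MZ and 39.5% ± 0.538 in control MZ, against 34.3% ± 1.17 in FO libraries. The 24 inversional segments held 12.3% ± 0.381 in deficient MZ and 13.7% ± 0.401 in control MZ, against 16.3% ± 1.07 in FO libraries. Deficient MZ libraries, at 11.8 to 12.7%, and control MZ libraries, at 13.3 to 14.2%, did not overlap here, whereas for the segments on the strand of Igkc they did. This split by both strand and distance was not among the planned values, and the lack of overlap is not read as a result. Without Igkv10-96, left out after its values were seen, the inversional segments held 8.88% ± 0.531 in deficient MZ and 9.74% ± 0.193 in control MZ, against 9.76% ± 0.219 in FO libraries, so that segment carried nearly all of the difference between control MZ and FO libraries. Deficient MZ libraries, at 8.20 to 9.47%, then still lay below control MZ libraries, at 9.52 to 9.96%. Without Igkv1-135, the segments on the strand of Igkc held 33.6% ± 1.56 in deficient MZ and 32.4% ± 0.687 in control MZ, against 29.8% ± 1.03 in FO libraries.

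The constant genes Igkc and Iglc2 offered a partial second reading of the balance of kappa and lambda, and it did not show the difference seen in V segments. The lambda constant genes Iglc1, Iglc3 and Iglc4 were not found among the counted genes. Their counts are missing from this reading and from the ratio of Iglv to Iglc2 below, so neither covers all lambda chains. Counts of Iglc2, a lambda constant gene, made up 23.5, 23.8, 26.1 and 25.4% of the counts of Igkc and Iglc2 in deficient MZ replicates 1, 2, 7 and 8 and 22.7, 23.7, 26.1 and 25.6% in control MZ replicates 3, 4, 5 and 6. In FO replicates 3, 4, 7 and 8 they made up 25.9, 24, 25.4 and 24.8%, within the range of the MZ libraries. The mean difference was -0.51 percentage points between control MZ and FO libraries and -0.35 between deficient MZ and FO libraries, where V segment counts gave 10.8 and 11.5.

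What differed was how many V counts stood beside each C count in the kappa chain. There were 0.506 ± 0.00655 Igkv counts per Igkc count in deficient MZ and 0.504 ± 0.0131 in control MZ, against 1.44 ± 0.0764 in FO libraries. For lambda the ratio of Iglv to Iglc2 counts was 0.340 ± 0.0349 in deficient MZ and 0.324 ± 0.0538 in control MZ, against 0.303 ± 0.0390 in FO libraries, where the groups overlapped. Igkc was called higher in control MZ cells, by 0.63 on the log2 CPM scale against FO cells (SE 0.07; edgeR quasi-likelihood, adjusted p = 3.1e-06), as was Iglc2 (0.60, SE 0.09; edgeR quasi-likelihood, adjusted p = 7.47e-05). Kit and read layout differ between these groups, and their part in the V counts of the kappa chain was not tested.

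**Figure D4:**
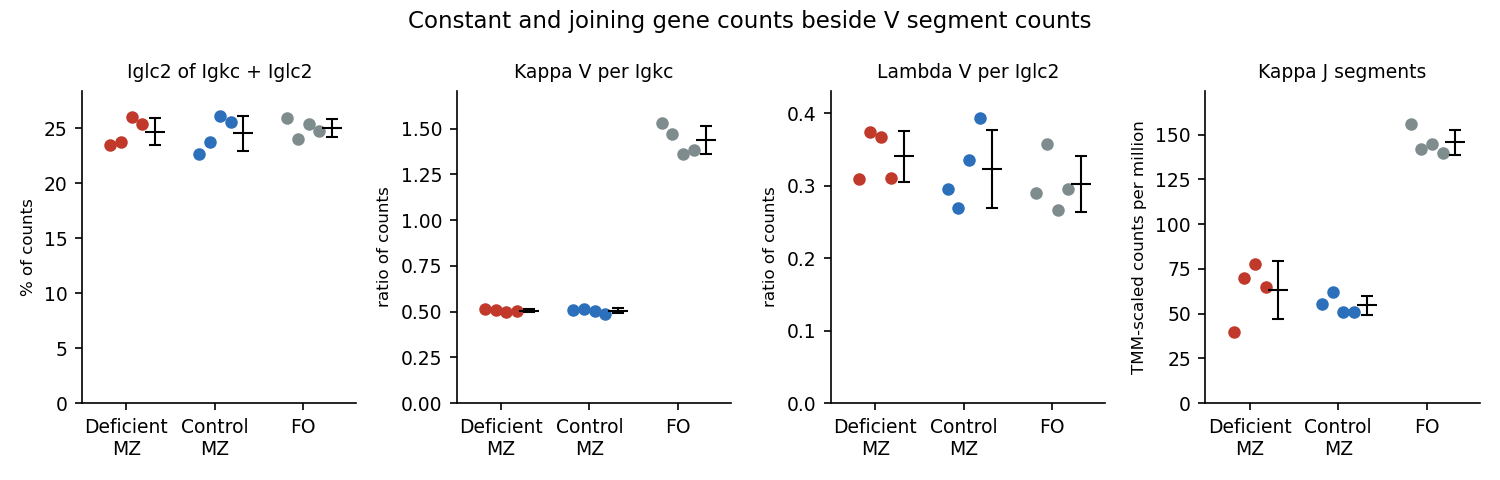
From left to right, Iglc2 counts as percent of Igkc and Iglc2 counts, Igkv counts per Igkc count, Iglv counts per Iglc2 count, and summed kappa J segment counts in TMM-scaled CPM, in each library. Points are libraries in replicate order and the bar beside them is the mean with the SD. FO libraries overlap MZ libraries in both panels on lambda genes and lie apart in the panels on Igkv and on kappa J counts.

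The kappa J segments Igkj1 to Igkj5, counted as genes of their own, were all called lower in control MZ cells, with log2 CPM differences of -1.15 to -1.72, and all lower in deficient MZ than in FO cells, with -0.96 to -1.53 (edgeR quasi-likelihood, largest adjusted p = 9.33e-07 and 0.000256). Over all genes, 38.8% and 38.4% were called lower in these comparisons. The summed CPM of these J segments was 40.01, 69.996, 77.5 and 64.6 in deficient MZ replicates 1, 2, 7 and 8 and 50.7 to 61.9 in control MZ, against 140 to 156 in FO libraries. Deficient MZ replicate 1 was the low library. Within these counts Igkj4 held 23.5% ± 1.12 in deficient MZ and 24.1% ± 0.714 in control MZ, against 30.1% ± 0.551 in FO libraries. Of the 14 listed joining and constant genes 7 were in the table, and 0 of them were called in deficient against control MZ cells (edgeR quasi-likelihood).

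Of 18 listed transcription factors that act on light chain genes, 2 were called higher and 1 lower in deficient than in control MZ cells (edgeR quasi-likelihood, adjusted p under 0.05). Over all genes, 2.29% were called higher and 1.40% lower. Irf4 and Irf8 are related factors that bind light chain enhancers. Irf4 fell to 123 ± 9.002 CPM in deficient MZ, against 174 ± 4.42 CPM in control MZ libraries (log2 -0.52, SE 0.07; edgeR quasi-likelihood, adjusted p = 0.00085). Irf8 rose to 679 ± 47.4 CPM in deficient MZ, against 524 ± 37.4 CPM in control MZ libraries (log2 0.37, SE 0.07; edgeR quasi-likelihood, adjusted p = 0.0145). Pou2f2, which encodes the octamer-binding factor Oct2 of immunoglobulin promoters, rose by 0.41 (SE 0.07; edgeR quasi-likelihood, adjusted p = 0.00666). In control MZ against FO cells 3 of the 18 were higher and 13 lower, beside 42.6% and 38.8% of all genes. Pax5, a factor of B cell identity, fell to 42.5 ± 10.4 CPM in control MZ against 267 ± 7.64 CPM in FO libraries (log2 -2.64, SE 0.15; edgeR quasi-likelihood, adjusted p = 6.94e-09).

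Of 14 listed genes of recombination and of the surrogate light chain, 8 were tested and 0 called in deficient against control MZ cells. Against FO cells, 3 were higher (Xrcc5, Xrcc6 and Nhej1, which join DNA ends) and 3 lower (Vpreb3, Lig4 and Dclre1c), both in deficient and in control MZ cells. Calls over all genes were 42.6% higher and 38.8% lower for control MZ cells, and 42.9% and 38.4% for deficient MZ cells, so 3 and 3 of 8 are near that background. Rag2 and Vpreb2 had no count in any library, and Rag1, which cuts at V and J segments with Rag2, had none in deficient MZ libraries and at most 0.0562 CPM elsewhere.

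Markers of other cells moved with the groups too. Of 13 plasma cell markers, 4 were called higher and 6 lower when control MZ was set against FO cells, and of 8 macrophage markers 6 were higher and 1 lower (edgeR quasi-likelihood, adjusted p under 0.05). In that comparison 42.6% of all genes were called higher and 38.8% lower. The summed CPM of the plasma cell markers was 873 to 1040 in deficient MZ and 804 to 953 in control MZ, against 319 to 387 in FO libraries. That of 7 B-1 cell markers was 845 to 1117 in deficient MZ and 668 to 855 in control MZ, against 332 to 546 in FO libraries. That of 8 germinal centre markers was 40.2 to 42.2 in deficient MZ and 45.5 to 48.5 in control MZ, against 211 to 222 in FO libraries. Macrophage markers summed to 25.6 to 36.5, 24.5 to 28.4 and 14.1 to 30.9 in deficient MZ, control MZ and FO libraries, and erythroid markers to 7.21 to 24.9, 1.19 to 10.7 and 1.85 to 7.12. T cell markers summed to 39.8 to 45.8, 37.2 to 48.4 and 38.8 to 48.7, with Cd3e and Cd4 at 0 in all control MZ libraries. In deficient against control MZ cells, 2 of 11 tested plasma cell markers (Ighg2b and Ighg3) and 3 of 6 B-1 cell markers (Zbtb32, Bhlhe40 and Nid1) were called higher. So were 2 of 3 tested T cell markers (Cd8a and Tcf7), 1 of 7 macrophage markers (Adgre1) and 1 of 5 erythroid markers (Hbb-bt) (edgeR quasi-likelihood, adjusted p under 0.05). No marker of these lists was called lower, and over all genes 2.29% were called higher and 1.40% lower. The part of these cells in segment usage was not tested. FO replicate 4 had the highest plasma cell, B-1, T cell, macrophage and erythroid sums of the FO libraries, and its low share of Igkv10-96 is given above.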

How the data were processed

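RNA was sequenced from sorted splenic B cells in 12 libraries, 4 each of deficient MZ, control MZ and FO cells. The authors deposited raw counts per gene, made with Trim Galore, TopHat2 2.0.12 and HTSeq on build GRCm38, per the submitters' processing notes. Of the annotation release, counting mode and strand setting nothing is stated there. The authors' deposited tables of log2 fold changes and adjusted p-values came from DESeq2 1.10.1, per the same notes. The labels' extract protocol names the SMARTer kit for all libraries, whereas the series' design text gives a TruSeq kit for FO cells. Both gates are described as CD93+.

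Gene types came from GENCODE M21, which matched 42462 of 43629 IDs. No lines lacked a gene ID. Each comparison was fitted over all genes that passed filterByExpr in its own 8 libraries with edgeR 4.0.16 (TMM, quasi-likelihood test) in R 4.3.3, with Benjamini-Hochberg adjustment over all of them, and tested on simulated data. DESeq2 1.42.0 was the alternative test, and 19338 genes had no count in any library. Shares were computed with pandas 2.3.3 and numpy 2.4.6, and sequences were read with Python 3.11.15. Exact permutation tests of sums over members were run as planned with scipy 1.17.1, and their p-values are not given, since the members and lists were chosen with earlier results of these data known. Named segments were all lambda members, the 8 with the largest mean share in each group, and, in each comparison, up to 6 called members in each direction with the largest log2 difference, a mean log2 CPM of at least 3 and groups that did not overlap. Members at the count minimum, kappa families and called genes of the lists were named as well. Other scalings, filters, tests and replicate sets were tried. Depth limits segments with few counts, and PCR reads without molecular identifiers are not independent molecules. Results of 1 further gene list are not reported here.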

Additional observations from a re-analysis of the deposited data

Results flagged for a closer look

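Among 69 groups of 4 libraries tested over 23 values, 3 had a library whose gap to the nearest of the others exceeded Dixon's 95% critical value, and chance flags about 1 in 20 groups. The share of Igkv1-135 was 5.25% in deficient MZ replicate 1, against 5.88 to 6.001% in the other deficient MZ libraries. The share of Igkv10-96 was 2.32% in deficient MZ replicate 2, against 2.91 to 3.03% in the others. The share of Igkv1-110 was 2.66% in FO replicate 7, against 4.03 to 4.13% in the other FO libraries. Without that library, Igkv1-110 was called lower in deficient MZ than in FO cells (log2 -0.53; edgeR quasi-likelihood, adjusted p = 0.00876), as it was without deficient MZ replicate 1 (log2 -0.50; edgeR quasi-likelihood, adjusted p = 0.0361).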

How the results depend on the processing

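No member was called between deficient and control MZ cells when any 1 library was left out (range 0 to 0), and 1 was called in the fit of all 12 libraries. Leaving out 1 library gave 80 to 82 members called in control MZ against FO cells and 73 to 82 in deficient MZ against FO cells. With no library left out, 42.6% of all genes were called higher and 38.8% lower in control MZ cells, and 42.9% and 38.4% in deficient MZ cells. These shares are not given here for the fits without 1 library, so the ranges are not read as a result about the members. With libraries scaled to the light chain V counts the log2 differences of control and of deficient MZ against FO cells turned to 0.64 and 0.52 for Iglv3, 0.51 and 0.47 for Igkv1-135, and 0.0198 and 0.0470 for Igkv1-117, and that of control MZ against FO cells to 0.12 for Igkv1-110. The cause was not tested. Igkv1-135 was called in deficient MZ against FO cells without FO replicate 7 (log2 -0.16; edgeR quasi-likelihood, adjusted p = 0.0479).

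Over the 72 members with at least 90% unique windows, an alternative chosen after seeing the data, the differences of control and of deficient MZ against FO libraries were -354.41 and -240.18 CPM for the light chain V total, 14.5 and 15.7 percentage points for the lambda share, -8.10 and -9.01 for the effective number, and -1.37 and -2.02 points for the inversional share. Of the farther 47 segments, only those among the 72 members were counted here, and their share differed by 4.74 points between control MZ and FO libraries. With all 47 counted, this difference was 2.71 points. Read from Iglc2 and Igkc, also chosen after seeing the data, the lambda difference turned to -0.51 and -0.35 points.

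With 1 library left out, the differences of deficient from control MZ, of control MZ from FO and of deficient MZ from FO libraries ranged as follows. The light chain V total differed by 85.3 to 270.2, by -842.8 to -681.2 and by -663.9 to -505.1 CPM. The lambda share differed by -0.35 to 2.23, by 9.30 to 11.9 and by 10.7 to 12.3 points. The effective number differed by -2.20 to -0.29, by -7.48 to -5.58 and by -8.10 to -7.39. The inversional share differed by -1.92 to -1.19, by -3.85 to -3.16 and by -5.37 to -4.64 points. The share of the farther segments differed by -0.83 to 0.12, by 1.96 to 3.35 and by 1.68 to 3.07 points.

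FO and MZ libraries share replicate numbers, but same-numbered libraries did not deviate together (correlations of 0.086, 0.043, -0.038 and -0.074 over 14581 genes). Labels give same-numbered MZ and FO libraries different genotypes, so the numbers do not mark the same mouse. A shared sort or batch under 1 number was not tested. With the replicate number as a block, 75 members were called in control MZ against FO cells, 1 higher (Iglv2, log2 0.95) and 74 lower, against 5 and 75 without the block, and 78 in deficient MZ against FO cells, 7 higher and 71 lower. Iglv1 (log2 0.12), Igkv8-27 (0.13) and Igkv8-16 (0.17) were not called in control MZ against FO cells. Only numbers 3 and 4 are shared by control MZ and FO libraries, and only 7 and 8 by deficient MZ and FO libraries. With the block each difference rests on those libraries alone, and control MZ replicates 3 and 4 were the low control libraries for Iglv1. The fit cannot tell the block from this smaller set of libraries. Shares of all genes called with the block are not given here. No paired analysis was possible between deficient and control MZ cells because they share no numbers. Members with windows unique in the whole genome were not run.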
